A study of Mus musculus with 4 samples.

Results

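Rnf121 (ENSMUSG00000070426), which encodes a ubiquitin ligase, is 1 of 32285 genes counted here in nuclei of the mouse hippocampus. It was found by its symbol in the gene table. The gene was chosen because earlier results of these data placed it lower in trained than in untrained mice, in CA1, CA3, astrocyte and inhibitory nuclei and in barcodes of few molecules. Its trained and untrained levels are therefore given as a description, with no test. Its differences between cell classes are given in the same way, since the values of 4 of these classes entered the choice. The difference between nuclei and free RNA within a library did not enter it and was tested, although counts of both had been used.

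The study trained 2 mice in active place avoidance, a spatial memory task in which an animal must stay out of a shocked zone, and kept 2 others as untrained controls. Hippocampus was collected 3 days after retention was tested, with no recall session in between. All 4 mice were ArcCreERT2::eYFPflx, so the controls too carried a Cre recombinase that is switched on by tamoxifen in cells that use the Arc promoter, with an eYFP reporter that the Cre turns on. Nuclei were not separated by that reporter here, and sex, age and strain background are not given in the sources used here. Each library was taken as 1 mouse (n = 2 in each group), and p-values measure only the spread between these samples.

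RNF121 is a protein with several membrane-spanning segments and a RING finger, the domain that brings a ubiquitin-carrying enzyme to a target protein. It sits in the membranes of the endoplasmic reticulum and the Golgi apparatus, where ligases of this kind mark misfolded membrane proteins for destruction, a process called ER-associated degradation. Work in other systems has tied it to the handling of an integrin, to the transport of voltage-gated sodium channels to the cell surface and to signalling through NF-kB. None of these functions was measured here.

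Rnf121 and its neighbour Xndc1 are read in opposite directions from nearly the same place, and their levels are set side by side below, so the stretch they share is shown. It is the RefSeq promoter window of Rnf121, 250 bases before and 50 after the start of the gene, on the minus strand of GRCm38.p6 at chr7:102065116-102065415. The reads themselves were assigned on another build, GRCm39, per the submitters' processing notes, so this window serves to show sequence and carries no measurement.
Rnf121 promoter: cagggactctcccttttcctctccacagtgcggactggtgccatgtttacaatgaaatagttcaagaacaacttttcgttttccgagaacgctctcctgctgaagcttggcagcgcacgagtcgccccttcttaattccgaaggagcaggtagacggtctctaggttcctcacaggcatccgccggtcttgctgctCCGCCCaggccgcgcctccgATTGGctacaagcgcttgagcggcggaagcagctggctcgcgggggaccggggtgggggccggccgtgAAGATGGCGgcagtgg
Capitals mark matches to the motifs searched, on either strand. The window of Xndc1, on the plus strand, covers 175 of these bases. GC made up 60.7% of the window, against a median of 52.7% over 27025 promoter windows of the same length, and it held 24 CpG pairs, against a median of 7. The window held 1 GC box (GGGCGG, read on the opposite strand, first base at -54; found in 35.9% of windows). It also held 1 CCAAT box (CCAAT, on the opposite strand at -34; 37.9% of windows) and 1 YY1 core (AAGATGGCG, at 35 after the start; 1.49% of windows). No motif overlapped another. The letters of a TATA box (TATAAA, in 14.2% of windows), a full CREB site (TGACGTCA, 1.88%), the core bound by XBP1 and ATF6 (TGACGTGG, 0.607%) and an E-box (CACGTG, 7.24%) were not in it.

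The libraries held 23155826 and 26369095 unique molecular identifiers (UMIs, each 1 captured RNA molecule) in Trained replicates 1 and 2, and 39749125 and 24636056 in Untrained replicates 1 and 2. Barcodes with at least 600 UMIs and at most 5% mitochondrial UMIs are called nuclei here. In the same order of libraries there were 6019, 12205, 16916 and 11963 of them, with median depths of 736, 887, 957.5 and 1080 UMIs. Their median mitochondrial share was 0.271% and 0.281% in trained and 0.445% and 0.378% in untrained libraries. Barcodes with fewer than 400 UMIs, 26378 to 55744 in a library, were summed as the pool of free RNA, RNA that floats in the suspension and enters droplets without a nucleus. That pool may also hold RNA of poorly captured nuclei. Pairs of libraries shared 17 to 65 nucleus barcodes, at most 0.533% of a library's nuclei.

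In nuclei, Rnf121 was at nearly the same level in both trained mice and at higher, unequal levels in the untrained mice. Trained replicates 1 and 2 held 206 and 525 Rnf121 UMIs, or 42.9 and 42.6 counts per 1000000 UMIs (CPM; 95% exact Poisson intervals 37.3 to 49.2 and 39.0 to 46.4). Untrained replicate 1 held 1565 UMIs or 84.9 CPM (80.8 to 89.3), and Untrained replicate 2 held 2282 UMIs or 155 CPM (148 to 161). These intervals cover counting error only. The trained libraries were indistinguishable within counting error, while the intervals of the untrained libraries overlapped neither each other nor a trained one. The group means were 42.8 CPM ± 0.22 (SD, n = 2) and 120 CPM ± 49.3 (SD, n = 2), and the fitted log2 difference, trained minus untrained, was -1.45 (SE 0.26). Without Untrained replicate 2 it was -0.95. In bulk sums of this kind, fewer nuclei that use the gene and less of its RNA in each nucleus cannot be told apart.

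Single nuclei rarely held more than 1 molecule of Rnf121. At least 1 UMI was found in 3.34% and 4.20% of nuclei in Trained replicates 1 and 2, and in 8.62% and 16.8% in Untrained replicates 1 and 2. The deepest nuclei can show a gene more often, so the share was also computed with each nucleus thinned to 600 UMIs, which left out no nucleus. It was then 2.52%, 2.53%, 4.99% and 9.13% in the same order, and the order of the libraries was the same as without thinning. The most UMIs of Rnf121 in 1 nucleus were 2, 2, 3 and 4. Free-RNA barcodes, with median depths of 216 to 312 UMIs, held an Rnf121 UMI in 0.795%, 0.806%, 1.35% and 1.76% of cases. A cell type that is known to lack this broadly used gene, and could serve as a blank, was not among the classes.

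Median depth, like the Rnf121 level, was lower in both trained libraries than in both untrained ones, so the level was set out by depth. Among barcodes of 600 to 799 UMIs, Rnf121 stood at 44.7 and 44.3 CPM in Trained replicates 1 and 2, and at 92.7 and 212 CPM in Untrained replicates 1 and 2. Among those of 1000 to 1499 UMIs it stood at 44.6, 44.5, 82.6 and 145 CPM. In both bands the untrained libraries were above the trained ones. At 1500 to 2499 UMIs Trained replicate 1, with 12 UMIs of Rnf121, stood at 81.5 CPM (42.1 to 142), beside 83.4 CPM (74.6 to 93.0) in Untrained replicate 1, so these did not separate there. Trained replicate 2 stood at 35.6 and Untrained replicate 2 at 145 CPM in that band. Untrained replicate 2 had its highest level in the shallowest nuclei, where its interval of 190 to 236 CPM lay above that of its deeper bands, for example 135 to 156 at 1000 to 1499 UMIs. In barcodes of 400 to 599 UMIs, too shallow for nuclei and too deep for the free pool, the levels were 34.1, 36.5, 57.0 and 118 CPM.

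**Figure D1:**
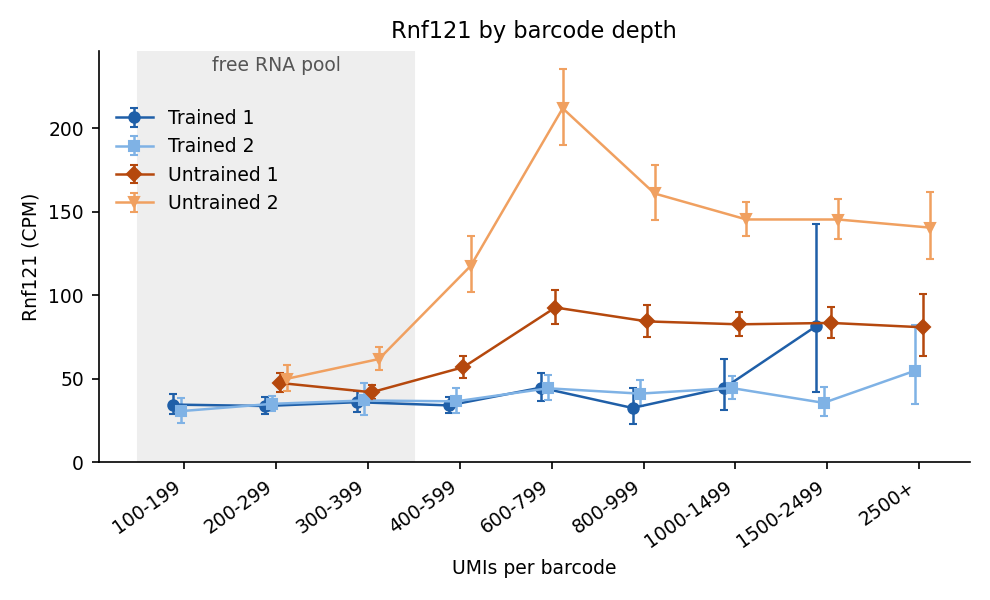
Rnf121 level (CPM, vertical axis) against the UMIs a barcode holds (horizontal axis, bands of depth), with 1 line per library; bars are 95% exact Poisson intervals and the grey area is the free RNA pool. In the band of 600 to 799 UMIs the trained libraries lie at 44.7 and 44.3 CPM and the untrained ones at 92.7 and 212 CPM, while at 1500 to 2499 UMIs Trained replicate 1 reaches 81.5 CPM with a wide interval.

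Free RNA held less Rnf121 than nuclei did in each of the 4 libraries. The pool stood at 34.6 and 34.5 CPM in Trained replicates 1 and 2 (448 and 386 UMIs) and at 43.9 and 57.2 CPM in Untrained replicates 1 and 2 (705 and 468 UMIs). Divided by that level, nuclei stood at 1.24 (95% interval from the counts 1.05 to 1.46), 1.24 (1.08 to 1.41), 1.94 (1.77 to 2.12) and 2.70 (2.45 to 2.99) in the same order. The trained libraries thus had the smaller ratios, and the free pools themselves differed by less between groups than the nuclei did. With the library as a term, nuclei were higher than free RNA by 0.75 on the log2 scale (SE 0.17, adjusted p = 0.00351, edgeR quasi-likelihood F test, adjusted over 17923 genes by Benjamini-Hochberg). That contrast called 75.8% of all genes tested, 6591 higher and 6999 lower in nuclei, so a call in it is common. Counts of nuclei and of free RNA had entered the choice of the gene, so this p-value is not independent of that choice. The difference was 1.11 in the untrained libraries alone, 0.39 with an adjusted p of 0.0897 in the trained libraries alone, and 0.94 with an adjusted p of 0.0515 without the library term. Whether it differs between groups was not tested, because the gene was chosen on that contrast. The log2 difference in free RNA, trained minus untrained, was -0.62 (SE 0.16).

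Nuclei were given a class from marker genes. A nucleus was put in a class when at least 3 of its markers were present and their number exceeded the number expected at its depth by a score of 2.5. Between 16.0% and 18.6% of a library's nuclei met this for 1 class, and 9 classes had at least 30 such nuclei in every library. These are called CA1 pyramidal-like, CA3 pyramidal-like, dentate granule-like, cortical excitatory-like, thalamic excitatory-like, inhibitory neuron-like, oligodendrocyte-like, astrocyte-like and choroid plexus-like, and named without the suffix below. Cortical, thalamic and choroid plexus nuclei lie outside the labelled tissue, the hippocampus. Each class had more of its own markers than of another class among its top 10 genes. The same markers had set the classes, so this was largely fixed by the gate and does not check the names. The classes rest on few nuclei, 33 to 705 in a library, and on few Rnf121 molecules, 0 to 14 in a trained and 4 to 105 in an untrained library.

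Astrocytes had the highest level of Rnf121 in both untrained libraries. They stood at 46.6 and 41.7 CPM in Trained replicates 1 and 2 (3 and 8 UMIs) and at 147 and 311 CPM in Untrained replicates 1 and 2 (43 and 84 UMIs). The trained astrocytes lay among the other trained classes. In a fit of all classes with the library as a term, astrocytes exceeded the mean of the other 8 classes by 0.81 on the log2 scale (SE 0.17). The untrained libraries hold most of the counts behind this value, which was 0.96 in the untrained libraries alone, while in the trained ones alone Rnf121 did not pass the count filter. It was 0.60 without Untrained replicate 2, 1.04 in nuclei of at least 1000 UMIs and 0.76 with nuclei thinned to 600 UMIs.

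Thalamic excitatory nuclei had the lowest level in both untrained libraries, and not in the trained ones. They stood at 46.5 and 33.4 CPM in the trained libraries (7 and 13 UMIs) and at 46.6 and 69.4 CPM in the untrained ones (32 and 36 UMIs). Untrained replicate 1 lay next to Trained replicate 1 here. The fitted difference from the mean of the other classes was -0.82 (SE 0.18), and -0.76 with all nuclei thinned to 600 UMIs. These were also the deepest nuclei of Untrained replicate 2, with a median of 1607.5 UMIs, while astrocytes had the lowest median there, 787 UMIs.

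Among hippocampal principal neurons, CA3 pyramidal nuclei, which receive the mossy fibres, stood at 49.8 and 40.9 CPM in the trained libraries (5 and 9 UMIs) and at 117 and 185 CPM in the untrained ones (27 and 37 UMIs). CA1 pyramidal nuclei, the next station of the circuit, stood at 41.2 and 24.8 CPM (3 and 4 UMIs) and at 95.5 and 109 CPM (22 and 24 UMIs). Dentate granule nuclei, whose axons form the mossy fibres, stood at 52.5 and 28.7 CPM (6 and 14 UMIs) and at 85.5 and 177 CPM (65 and 105 UMIs). In each of the 3 classes both untrained libraries lay above both trained ones. In the untrained libraries all 3 lay between thalamic nuclei and astrocytes, and in the trained ones only CA3 nuclei of Trained replicate 2 did. The fitted difference of CA3 nuclei from the mean of the other classes was 0.43 (SE 0.20), and fell to 0.03 with nuclei thinned to 600 UMIs and 0.16 with a wider gate. Dentate granule nuclei differed by 0.07 (SE 0.15), and the CA1 value was -0.19 (SE 0.22). CA3 exceeded CA1 by 0.56 (SE 0.27). Its 95% interval of -0.01 to 1.12 just reaches 0, and would not with the degrees of freedom that the test of the fit uses. The difference is thus borderline.

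Inhibitory neurons stood at 58.5 and 52.0 CPM in the trained libraries (5 and 12 UMIs) and at 117 and 151 CPM in the untrained ones (29 and 33 UMIs). Cortical excitatory nuclei held no Rnf121 UMI in the 33 nuclei of Trained replicate 1. A count of 0 allows up to 3 UMIs, here a level of up to 121 CPM. The other 3 libraries stood at 24.9, 109 and 167 CPM (2, 11 and 15 UMIs). The fitted difference from the mean of the other classes was 0.24 (SE 0.19) for inhibitory and -0.01 (SE 0.30) for cortical nuclei. The cortical interval, -0.64 to 0.61, is wide, so a difference of that size was not detectable at this depth.

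Oligodendrocytes, which make myelin, were the 1 class whose groups overlapped, although the thalamic groups nearly touched. They stood at 10.8 and 52.1 CPM in the trained libraries (1 and 14 UMIs) and at 49.4 and 106 CPM in the untrained ones (20 and 42 UMIs). Their fitted difference from the mean of the other classes was -0.65 (SE 0.19), and -0.44 without Untrained replicate 1. Choroid plexus nuclei, which secrete cerebrospinal fluid, stood at 54.8 and 51.3 CPM in the trained (3 and 5 UMIs) and at 79.1 and 180 CPM in the untrained libraries (4 and 16 UMIs). Their difference from the others was 0.12 (SE 0.30).

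**Figure D2:**
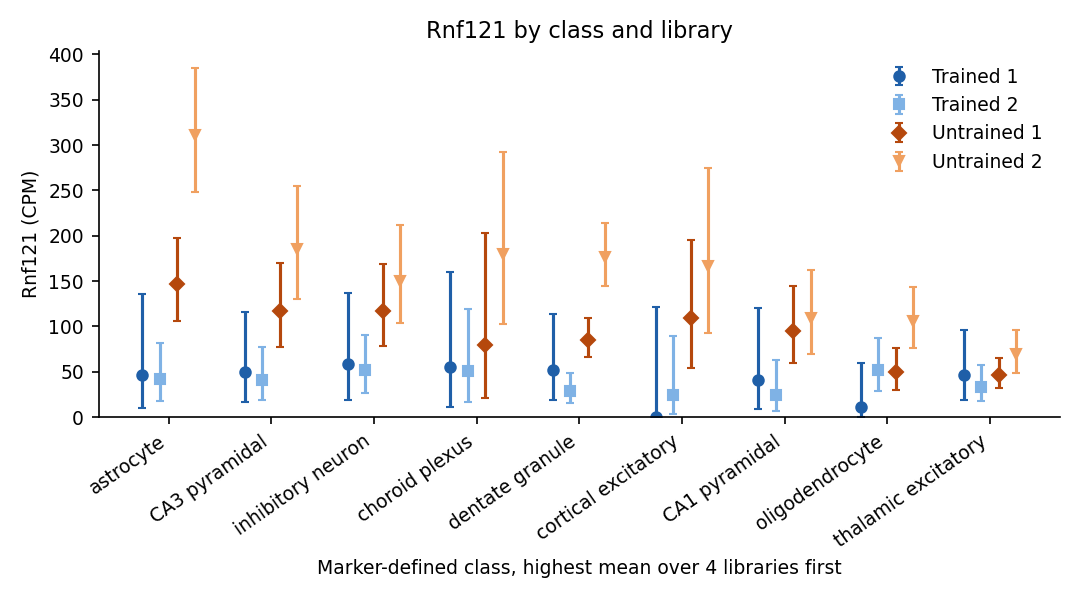
Rnf121 level (CPM, vertical axis) in 9 marker-defined classes (horizontal axis, ordered by the mean over 4 libraries), with 1 point per library and 95% exact Poisson intervals, except that the bar of the sum with no UMI ends at the level 3 UMIs would give. Untrained replicate 2 is the highest library in each of the 9 classes, from 69.4 CPM in thalamic excitatory to 311 CPM in astrocyte nuclei.

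In descending order of the mean over 4 libraries, the classes were astrocyte (137 CPM ± 126, SD, n = 4), CA3 (98.2), inhibitory (94.6), choroid plexus (91.3), dentate granule (85.9), cortical (75.2), CA1 (67.6), oligodendrocyte (54.6) and thalamic nuclei (49.0). This order follows the untrained libraries, which have the higher levels, and the SD of the astrocyte mean is nearly as large as the mean. Within the trained libraries the order was another, with means from 12.5 CPM in cortical to 55.2 CPM in inhibitory nuclei. For each of the 8 pairs of neighbours in this order, the 95% interval of the fitted difference included 0. Of the 3 further pairs compared, astrocytes exceeded oligodendrocytes by 1.29 (SE 0.23), CA3 exceeded thalamic nuclei by 1.12 (SE 0.25), and CA3 and CA1 are given above. Thinning to 600 UMIs reduced the difference between CA3 and thalamic nuclei to 0.70 (SE 0.36).

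The trained classes stood at 0 to 58.5 CPM, and the untrained ones at 46.6 to 311 CPM. In 8 of 9 classes both trained libraries lay below both untrained ones, the pattern for which the gene was chosen. CA1, CA3, astrocyte and inhibitory nuclei, which had entered the choice, are among these classes. Thalamic nuclei are too, although Trained replicate 1 and Untrained replicate 1 were nearly level there, at 46.5 and 46.6 CPM. The share of all genes that separated in this way was not computed. All 9 classes come from the same 4 libraries, so they are not separate observations, and this count is a description. The fitted log2 differences, trained minus untrained, were -2.36 (SE 0.47) in astrocytes, -1.90 (SE 0.38) in dentate granule, -1.75 (SE 0.51) in CA1 and -1.73 (SE 0.42) in CA3 nuclei. They were -1.27 (SE 0.41) in inhibitory, -0.92 (SE 0.49) in oligodendrocyte and -0.61 (SE 0.39) in thalamic nuclei. The oligodendrocyte value moved to -2.81 when Trained replicate 2 was left out, to -0.54 when Trained replicate 1 was, and to -0.24 when Untrained replicate 2 was. The thalamic value moved to -0.36 when Trained replicate 2 was left out, to -0.31 when Untrained replicate 2 was, and to -0.93 when Untrained replicate 1 was. Rnf121 did not pass the count filter in cortical and choroid plexus nuclei, which were not fitted. Nuclei that met no class gate, 4780 to 13324 in a library, stood at 41.1, 43.3, 85.3 and 155 CPM, close to the levels of all nuclei.

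Set against this, the same edgeR fit called few genes between trained and untrained libraries. It called 0% of 17454 genes in all nuclei (1091 at an unadjusted p of 0.05, while DESeq2 called 6) and 0% in free RNA (3120 of 16457 unadjusted), cortical (150 unadjusted) and choroid plexus nuclei (83 unadjusted). It called 0.0249% of the genes in CA1, 0.0451% in CA3, 0.0249% in dentate granule, 0.0142% in thalamic, 0.0197% in inhibitory, 0.0148% in oligodendrocyte and 0.0932% in astrocyte nuclei. Nothing is read from these shares for Rnf121, since the contrast chose it.

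**Figure D3:**
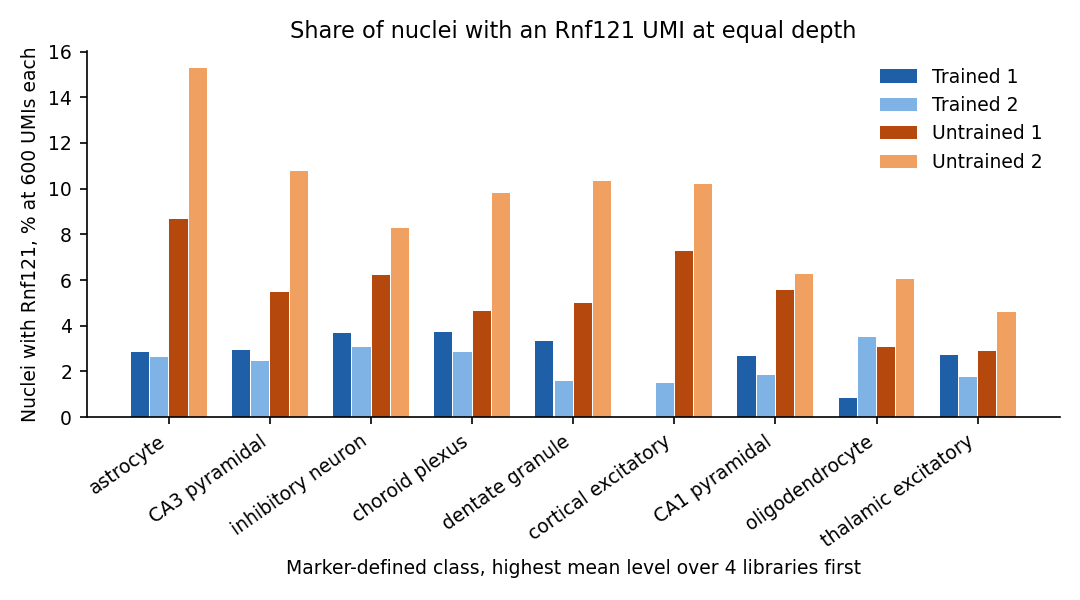
Share of nuclei with at least 1 Rnf121 UMI after each nucleus was thinned to 600 UMIs (vertical axis, percent) in 9 marker-defined classes (horizontal axis), with 1 bar per library. Astrocytes of Untrained replicate 2 reach 15.3%, and no bar of a trained library passes 3.73%.

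The share of nuclei with an Rnf121 UMI followed the level. At 600 UMIs per nucleus, 2.86% and 2.63% of the astrocytes of Trained replicates 1 and 2 held one, against 8.66% and 15.3% for Untrained replicates 1 and 2. Without thinning the astrocyte shares were 4.05%, 3.90%, 11.8% and 23.6%, at median depths of 784, 831, 767 and 787 UMIs. Thalamic nuclei held one in 2.74%, 1.74%, 2.90% and 4.59% of cases after thinning and in 3.70%, 4.02%, 6.14% and 10.9% before. Astrocytes and thalamic nuclei thus lay apart in the untrained libraries, while in the trained ones their shares were within 1 percentage point of each other.

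Markers of the cell types that the dissection could hold were measured in the same sums. Of 18 marker lists, 4 had a higher summed level in both trained libraries than in both untrained ones in nuclei (choroid plexus, CA3, oligodendrocyte and general neuronal markers), and 8 did in free RNA. No list was lower in both trained libraries. With 2 libraries in a group some lists separate by order alone, and the share of all genes that separated so was not computed. These counts are therefore a description. The 10 choroid plexus markers, all detected in each library, summed to 1482 and 1414 CPM in trained and 586 and 767 CPM in untrained nuclei. In free RNA they summed to 3612 and 4858 against 1337 and 2134 CPM. The part of these markers in the Rnf121 levels was not tested. With nuclei limited to 1% mitochondrial UMIs the log2 difference of Rnf121 in all nuclei was -1.44, and with nuclei thinned to 600 UMIs it was -1.51.

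None of the 5 nearest detected genes on either side of Rnf121 varied as widely over the libraries, although Folr1, farther off, did. In the reference gene order used here, Lamtor1, Lrrc51, Numa1 and Il18bp lie on one side, and Xndc1, Xntrpc, Trpc2 and Art5 on the other. That order is of another build than the counts. Xntrpc and Trpc2 were not analysed here, and Art5 gave 1 UMI in all nuclei together. Xndc1, whose start faces that of Rnf121 across the sequence shown above, stood at 25.4, 28.7, 26.7 and 24.3 CPM in nuclei of Trained replicates 1 and 2 and Untrained replicates 1 and 2. Its highest library exceeded the lowest 1.18-fold, against 3.63-fold for Rnf121. Clpb, which encodes a mitochondrial chaperone and lies farther off, stood at 41.3, 44.4, 43.7 and 41.4 CPM. Numa1, which encodes a protein that organises the mitotic spindle, stood at 56.3, 54.3, 50.3 and 60.2 CPM. The groups overlapped for each of these 3 genes. The strand setting of the counting is not given in the sources used here, so reads of such close genes could be exchanged.

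Lamtor1 encodes a lysosomal scaffold of nutrient signalling, and stood at 24.4 and 23.8 CPM in trained and 36.3 and 33.3 CPM in untrained nuclei, a log2 difference of -0.50 (SE 0.14) that edgeR did not call (adjusted p = 0.793). Folr1, a folate receptor gene and a marker of choroid plexus, stood at 7.08 and 5.44 CPM in trained and 1.47 and 2.85 CPM in untrained nuclei, the opposite direction to Rnf121 (log2 difference 1.56, SE 0.37, adjusted p = 0.793 by edgeR). It was chosen after its values were seen, and with no count filter edgeR called it (adjusted p = 0.00109). Lrrc51 (9.38, 10.3, 9.72 and 9.82 CPM) and Il18bp (4.17, 6.25, 4.83 and 6.17 CPM), which encodes a protein that captures interleukin-18, overlapped between the groups. Of the 9 tested genes on the list of neighbours, 6 had a log2 difference above 0 and 3 below 0, with a median of 0.03. Neither edgeR nor DESeq2 called any of them. An unadjusted p of 0.05 by edgeR was passed by 2 of them, and by 6.25% of all genes. Against free RNA, Xndc1 was higher in nuclei by 1.28 on the log2 scale (SE 0.16, adjusted p = 0.000114 by edgeR) and Lamtor1 lower (-1.50, SE 0.10, adjusted p = 1.19e-05 by edgeR). Rnf121 at 0.75 lay between them.

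**Figure D4:**
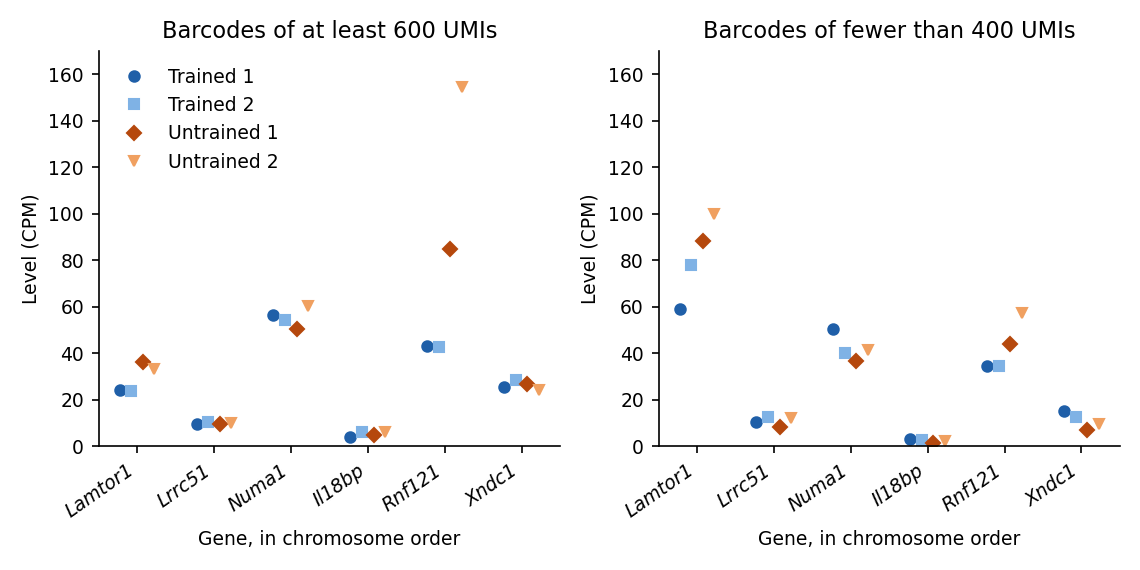
Levels (CPM, vertical axis) of Rnf121 and its 5 detected neighbours in chromosome order (horizontal axis), with 1 point per library, in nuclei (left) and in free RNA (right). Rnf121 spans 42.6 to 155 CPM in nuclei, while Xndc1 spans 24.3 to 28.7 CPM.

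Genes of the pathway in which RNF121 works were measured in the same fit, and edgeR called none of them in any class, in all nuclei or in free RNA. It called 0% of all genes in all nuclei and in free RNA, and at most 0.0932% in a class, so nothing about the pathway is read from this. Some classes tested few members, such as 4 genes of ER-associated degradation in cortical and 2 in choroid plexus nuclei. In all nuclei 13 of 140 tested members of the 6 lists, neighbours included, passed an unadjusted p of 0.05, or 9.29%, against 6.25% of all genes, and DESeq2 called 0. Of 41 tested genes of ER-associated degradation, 19 lay above and 22 below 0 in all nuclei, with a median log2 difference of -0.02, against 0.003 over all genes. The 3 of them that passed an unadjusted p of 0.05 by edgeR lay below 0. In free RNA 13 lay above and 28 below 0, with a median of -0.14, against 0.03 over all genes. There 7 passed the unadjusted p, as did 18.96% of all genes. Class medians ran from -0.97 in cortical nuclei (4 genes) to 0.07 in thalamic nuclei. Vcp, the ATPase that pulls marked proteins out of the membrane, stood at 117, 97.2, 122 and 106 CPM in the order Trained replicates 1 and 2, Untrained replicates 1 and 2. Ube2k, a ubiquitin-conjugating enzyme, stood at 181, 172, 175 and 171 CPM, and Ube2g1, another enzyme of that kind, at 123, 137, 110 and 123 CPM. For each of these 3 genes the highest and the lowest library lay far closer together than for Rnf121.

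Of 27 tested genes of other membrane-bound RING ligases, 16 lay above and 11 below 0, with a median of 0.04. An unadjusted p of 0.05 by edgeR was passed by 3 of them, and by 6.25% of all genes in all nuclei. Rnf150 stood at 210, 219, 178 and 211 CPM, and Rnf130, a ligase of the same domain family, at 140, 116, 129 and 123 CPM. Both overlapped between groups.

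The unfolded protein response is the programme by which cells answer misfolded proteins in the endoplasmic reticulum. It had a median of -0.09 over its 25 tested genes in nuclei, with 10 above and 15 below 0. An unadjusted p of 0.05 by edgeR was passed by 6.25% of all genes in nuclei and by 4 genes of this response. In free RNA its median was -0.32, with 5 above and 20 below 0, against a median of 0.03 over all genes there, and edgeR called none of them (6 at an unadjusted p of 0.05, which 18.96% of all genes passed there). Among its genes of highest level, Calr, a chaperone that binds calcium, stood at 79.6 and 90.1 CPM in trained and 120 and 97.0 CPM in untrained nuclei. Hsp90b1, another chaperone, stood at 89.2 and 84.4 against 115 and 99.1 CPM. Their log2 differences were -0.32 (SE 0.15) and -0.27 (SE 0.13), and edgeR called neither (adjusted p = 0.793 and 0.802). Atf6, a sensor of this response, stood at 109, 114, 115 and 129 CPM, and Canx, a lectin chaperone, at 118, 103, 118 and 118 CPM.

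Sodium channels and their partners lay on either side of 0. Of 17 tested, 9 lay above and 8 below 0, with a median of 0.05. Fgf14 and Fgf12, which encode proteins that bind the tails of the channels, stood at 2162, 2178, 2278 and 2193 CPM and at 913, 841, 933 and 883 CPM. Scn8a, a main sodium channel of axons, stood at 405, 371, 355 and 391 CPM, and Ank3, the ankyrin that anchors such channels, at 1470, 1517, 1313 and 1520 CPM. Of 21 tested genes of the NF-kB pathway, 12 lay above and 9 below 0, with a median of 0.08. Nfkb2 and Nfkb1, subunits of the transcription factor, stood at 97.3, 102, 98.1 and 67.5 CPM and at 73.6, 65.3, 58.0 and 64.5 CPM. Tab2, an adaptor of the kinase TAK1, stood at 93.8, 75.9, 79.5 and 77.8 CPM, and Cyld, a deubiquitinating enzyme that restrains the pathway, at 112, 104, 102 and 105 CPM. For these 8 genes the libraries lay closer together than for Rnf121.

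The genes most like Rnf121 were sought over the 36 sums of 9 classes in 4 libraries, by the correlation of log2(CPM + 10). Among 7193 genes with a mean of at least 20 CPM, the 6 highest Pearson correlations were those of Arf5 (0.68), Syf2 (0.67), Ndufa8 (0.67), Slc16a4 (0.66), Tspyl4 (0.66) and Yipf4 (0.66), against a median of 0.05 over all genes. The points share libraries and depth, and the sums hold the group difference of Rnf121, so these values are a description and likeness in the groups is part of how the genes were found. Arf5, a small GTPase of membrane traffic, stood at 57.5 and 60.8 CPM in trained and 87.4 and 93.4 CPM in untrained nuclei. Ndufa8, a subunit of respiratory complex I, stood at 54.8, 53.3, 94.4 and 69.6 CPM, and Syf2, a splicing factor, at 28.3, 26.2, 40.1 and 36.8 CPM. Tspyl4 stood at 96.7, 94.6, 131 and 114 CPM, and Yipf4, a membrane protein of the Golgi, at 27.5, 26.5, 36.2 and 34.6 CPM. Slc16a4, a member of the monocarboxylate transporter family, stood at 32.5, 36.4, 36.7 and 35.4 CPM.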

How the data were processed

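The authors deposited UMI counts per gene and barcode for 4 libraries; the file headers name Cell Ranger 7.0.0 as the software. Tools in the submitters' processing notes are Cell Ranger 8 and STAR, with GRCm39 (mm39). The annotation, intron counting and strand setting are not given in the sources used here. The gene, lists and markers were chosen with earlier results of these data known. The scoring rule of the class gate was set after the data were seen. Of 157 markers, 156 were found. Nuclei in which a second class also scored 2.5 were left out, 273 to 781 in a library; no other doublet caller was run. Between 1087 and 2279 nuclei in a library scored within 0.25 of the gate.

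Counts were summed per class and library and fitted in R 4.3.3 with edgeR 4.0.16 (filterByExpr, TMM, quasi-likelihood F test, Benjamini-Hochberg adjustment over all genes of a contrast, threshold 0.05). SE is the absolute log2 value over the root of F. Between classes and between nuclei and free RNA, the library was a term; tests of Rnf121 between classes had been planned, but their p-values are not given, because 4 of the classes entered the choice of the gene. Intervals of class differences use 24 degrees of freedom, fewer than the test of the fit uses, so they are wider than that test implies. From each list the text names the 2 to 4 members of highest mean CPM, since none was called. The named relatives of Rnf121 are the 6 of highest correlation, and the neighbours the 4 nearest protein-coding genes on either side. The fits were tested on simulated data with a fixed spread, no library effects beyond depth, and changes only in genes above a count limit. That setting is simpler than these data. It does not show how the fits do where replicates differ as the untrained ones do here. Alternatives included DESeq2 1.42.0 (Wald test and size factors), no count filter, thinning, other UMI and mitochondrial limits, free RNA subtracted, and each library left out. Python 3.11.15, numpy 2.4.6, scipy 1.17.1, pandas 2.3.3 and matplotlib 3.10.9 were used. The promoter window is from RefSeq.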

Additional observations from a re-analysis of the deposited data

Results flagged for a closer look

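In cortical excitatory nuclei, Rnf121 stood below the level of all nuclei in both trained libraries, with differences of -42.9 and -17.7 CPM, and above it in both untrained libraries, with 24.2 and 12.0 CPM. The mean differences were -30.3 and 18.1 CPM, which lie 48.4 CPM apart. Both libraries of a group lay on the same side of that level and the 2 groups on opposite sides, and the difference between the groups was not tested. It rests on 0 and 2 UMIs in the trained and 11 and 15 UMIs in the untrained libraries. Within counting error the cortical level could not be told from that of all nuclei in any library. Trained replicate 1 allowed up to 121 CPM against 42.9, and the interval of Trained replicate 2 was 3.02 to 90.0 against 42.6. Untrained replicates 1 and 2 had 54.5 to 195 against 84.9 and 93.3 to 275 against 155 CPM. This pattern was looked for in 9 classes.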

How the results depend on the processing

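The log2 difference of Rnf121 between trained and untrained libraries was below 0 in 113 of 113 alternatives over 9 sums, from -2.82 to -0.24. Fits in which Rnf121 did not pass the count filter are not among them. The alternatives reuse the counts on which the gene was chosen, so their shared sign is no support for the difference. In all nuclei the log2 difference ran from -1.83 to -0.95 with each library left out, and in free RNA from -0.79 to -0.48. With a replicate block it was -1.42 in all nuclei; replicate numbers share only a number here (r = 0.0045 over 15401 genes between the groups' differences of replicate 1 and 2), and the block moved no direction. The number of listed genes called in all nuclei was 1 with no count filter (Folr1) and 0 to 1 with each library left out (Rnf182 without Untrained replicate 2), both named after their values were seen. Genes called in all nuclei numbered 158 with no count filter, 1 with at least 1000 UMIs, 1 with the block, 6 by DESeq2, and 2 to 156 with each library left out, 156 without Untrained replicate 2. The astrocyte difference ran from 0.60 to 0.91 with each library left out. The thalamic one was -0.81 without the library term. Nuclei against free RNA gave 0.94 without the library term and 0.39 in the trained libraries only. Class differences near 0 changed sign. Cortical nuclei gave 0.13 with nuclei of several gates kept, 0.26 with a wider gate, 0.015 with DESeq2 size factors, 0.0092 without the library term, 0.17 in the untrained libraries only, and -0.17 to 0.080 with each library left out. Choroid plexus gave -0.29 with nuclei of several gates kept and -0.021 with no count filter. Dentate granule nuclei gave -0.064 with a wider gate, -0.016 by DESeq2 and -0.15 (without Untrained replicate 2) to 0.14 with each library left out. The cause was not tested. The wider gate and the single-group fits were chosen after seeing the data. Class values are limited by depth, with 0 to 14 Rnf121 UMIs in each trained sum.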
